A study of Mus musculus with 16 samples.

Results

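The calpain system is described here through 10 genes in 8 mouse tissues under feeding and fasting. The genes are the large subunits Capn1, Capn2, Capn3, Capn5, Capn6, Capn7, Capn10 and Capn11, the small subunit Capns1 and the inhibitor Cast, out of 55385 genes in the count table. They were chosen by symbol as the relatives of Capn11, and Capn11 was itself selected on the fasting against fed values described below, so those values are a description and carry no test. Levels by tissue were not the basis of the choice and were tested, although earlier results of these data were known. The RNA came from male C57BL/6 mice, bought at 12 weeks of age and kept for at least 10 to 14 days before use. Fed mice had free access to chow and water, fasting mice had no food for 24 h, and tissues were collected at 10 am. Tissue of the 3 mice of a treatment was pooled in equal parts into a single library per tissue, giving 16 libraries from 8 organs or depots (heart, lung, liver, kidney, spleen, muscle and the white and brown adipose depots). No tissue had a second library of the same treatment. Every tissue was taken from the same pair of mouse pools, so a difference between the pools and an effect of fasting cannot be told apart.

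Calpains are cytosolic cysteine proteases that are switched on by calcium and cut their substrates at a few sites rather than digesting them. The conventional enzymes, calpain-1 and calpain-2, each pair their own large subunit with the shared small subunit made from Capns1, and calpastatin, made from Cast, is their specific inhibitor. Cleavage of talin, spectrin and filamin ties calpains to remodelling of the cytoskeleton, and loss of Capn3 function causes a limb-girdle muscular dystrophy. Capn11 has been known in mice mainly as a gene of the testis, a tissue outside this series.

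The catalytic cysteine shows which members can be proteases, so the coding sequence around it is printed for every large subunit (GENCODE M21 transcripts on GRCm38, 5′ to 3′, with the codon aligned to the catalytic cysteine of Capn1 in capitals).
Capn1: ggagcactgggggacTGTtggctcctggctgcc
Capn2: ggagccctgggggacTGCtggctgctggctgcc
Capn3: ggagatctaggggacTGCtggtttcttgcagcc
Capn5: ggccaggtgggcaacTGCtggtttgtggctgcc
Capn6: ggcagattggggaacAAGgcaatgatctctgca
Capn7: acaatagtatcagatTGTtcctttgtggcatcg
Capn10: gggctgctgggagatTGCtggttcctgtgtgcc
Capn11: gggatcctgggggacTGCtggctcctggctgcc
A cysteine codon stood at this place in 7 of the 8 genes. The exception was Capn6, which carried AAG, a lysine codon, at codon 81 (chrX:143810884-143810916, minus strand). Capn11 had TGC at codon 115 of 714, and its window lay at chr17:45643850-45653192 on the minus strand, spanning an intron. Over the whole translated coding sequence, Capn11 was identical to Capn1 at 52.8% of aligned positions, to Capn2 at 51.7% and to Capn3 at 49.3%. The closest pair among the 8 was Capn1 and Capn2 with 61.4%, and Capn5 and Capn6 shared 48%. Capn7 and Capn10 were the least alike at 28.6%.

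Counts summed to between 14245178 and 36069968 per library, and the exact 95% intervals given below cover counting error alone. The defining markers of each labelled tissue had their highest sums in its own libraries, and the general adipocyte list had them in both adipose depots. Some libraries held genes of another tissue in amounts that differed between treatments. The 7 skeletal muscle markers (Acta1, Ckm, Myh4 and others) summed to 2477 CPM (counts scaled to a common library total of 1e6) in fed and 1138 CPM in fasting brown adipose, against 141033 and 139552 CPM in muscle itself. The 5 pancreas acinar markers summed to 369.6 CPM in fed and 11.5 CPM in fasting spleen. In white adipose the 4 B cell markers summed to 343.7 CPM fed and 80.7 CPM fasting, while the 4 kidney tubule markers (Kap, Slc34a1, Umod, Lrp2) summed to 64.8 CPM fed and 743.8 CPM fasting. In lung the B cell markers summed to 300 CPM fed and 153.7 CPM fasting, and the 4 cardiomyocyte markers to 808.5 and 492.9 CPM. The part of these markers in the members' values was not tested. As these are bulk samples, fewer cells of a type and less RNA per cell cannot be told apart.

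Capn11 (ENSMUSG00000058626.16, chr17:45630204-45659325, minus strand, GRCm38) was lower in the fasting library of all 8 tissues. It was also a rare transcript, with 342 counts over the 8 fed libraries and 62 over the 8 fasting ones. In spleen it had 3.27 CPM fed (74 counts) and 0.539 CPM fasting (15 counts). In lung the values were 2.40 CPM (72 counts) and 0.360 CPM (13 counts), and in liver 2.26 CPM (52 counts) and 0.280 CPM (7 counts). White adipose had 1.85 CPM (43 counts) fed and 0.292 CPM (8 counts) fasting. In CPM on library totals these 4 tissues held the highest fed levels, and in each the fasting level lay below the lowest fed level of any tissue. Heart had 1.63 CPM (28 counts) fed and 0.524 CPM (8 counts) fasting. Kidney had 1.51 CPM (34 counts) and 0.194 CPM (5 counts). Brown adipose had 1.51 CPM (25 counts) and 0.0702 CPM, which was a single count and under the 0.211 CPM that 3 counts stand for in that library. Muscle had the lowest fed level, 0.581 CPM (14 counts), with 0.162 CPM (5 counts) fasting. The fed libraries ranged from 0.581 to 3.27 CPM with a median of 1.74, and the fasting libraries from 0.0702 to 0.539 CPM with a median of 0.286. The ranges did not overlap, although fasting spleen and heart lay just under fed muscle.

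**Figure D1:**
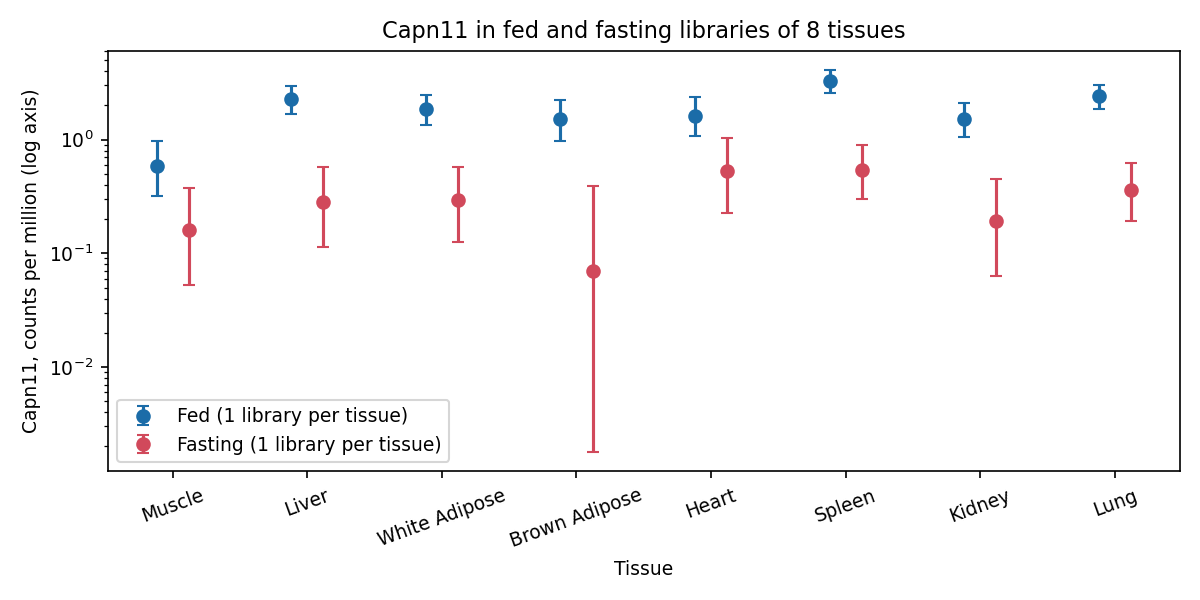
Capn11 in CPM (log axis) in the fed (blue) and fasting (red) library of each tissue, with exact 95% Poisson intervals of the single library. In every tissue the fasting point lies below the fed point, with the widest interval in fasting brown adipose, where 1 count was seen.

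Expressed as a ratio of fasting to fed, Capn11 stood at 0.124 in liver (0.0476 to 0.275), 0.128 in kidney (0.0391 to 0.329), 0.150 in lung (0.0765 to 0.274), 0.158 in white adipose (0.0642 to 0.340) and 0.165 in spleen (0.0879 to 0.290). These 5 tissues lay close together and their intervals overlapped throughout. The ratios of the remaining tissues lay outside this group, with intervals that overlapped those of the 5. They were 0.278 in muscle (0.0784 to 0.817), 0.322 in heart (0.127 to 0.726) and 0.0466 in brown adipose (0.00114 to 0.285). These intervals describe counting error and, for a gene chosen on this contrast, test nothing. On the log2 scale of CPM with 0.01 added, the differences ran from -4.24 in brown adipose to -1.61 in heart, with a median of -2.66. The sizes depend on the amount added: with 1 CPM the differences ran from -1.47 in spleen to -0.45 in muscle, with -1.23 in brown adipose, and were below 0 in all 8 tissues. The fit of all 16 libraries with tissue as a block gave -2.57 ± 0.21 (SE, 7 residual degrees of freedom). Leaving out each tissue in turn kept it between -2.71 and -2.48. The next most negative member in the fit of all 16 libraries was Capn6 at -0.27 ± 0.21. For Capn11 the fitted values describe the contrast that chose it and likewise test nothing. The SE and the range reflect spread between tissues, and cannot cover a difference between the fed and the fasting pool. Neighbours in the order of tissue levels overlapped all the way from spleen to muscle when the fed and fasting library of a tissue were taken as its range. With TMM factors the order was another, with liver (1.03) and heart (0.53) highest against the mean of the other tissues, lung at -0.13, white adipose at -0.35, muscle at -0.46 and brown adipose lowest at -0.58.

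The genes beside Capn11 showed smaller differences where they were well expressed. No gene overlapped it in the count table, and 7 lay within 50000 bases. The nearest, Tmem63b, which encodes a cation channel of the plasma membrane, lies 845 bases away on the same strand. It was lower in fasting in 3 of 8 tissues, with log2 differences from -0.36 to 0.46 at levels of 22.9 to 115.9 CPM. Slc29a1, a nucleoside transporter gene, was lower in 2 of 8 tissues (-0.58 to 0.36), and Mrpl14, of the mitochondrial ribosome, was lower in 7 of 8 (-0.58 to 0.16). Mymx, which encodes a small protein of myoblast fusion, stayed at or below 0.847 CPM and was lower in 1 of 8. The other 3 were Gm17080 (up to 3.23 CPM, lower in 3, -4.23 to 2.32), Gm25008 (up to 0.0719 CPM, -2.77 to 2.22) and Gm16172 (no counts). Spermatid markers, a check for RNA of the testis, were close to absent. The 6 genes of the list summed to between 0 and 4 counts in 15 of the 16 libraries, and to 33 counts (1.20 CPM) in fasting white adipose, where Capn11 had 8 counts.

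The genes whose 16 values followed Capn11 most closely (Pearson r of log2 of CPM with 0.1 added, among 20857 genes) were Leo1, a component of the PAF1 transcription elongation complex, with r = 0.800, and Igtp, an interferon-inducible GTPase, with r = 0.763. Gm17971 had r = 0.740, Akap17b r = 0.733 and Slc35b1, a transporter of the endoplasmic reticulum, r = 0.725. All 5 were lower in fasting in at least 7 of 8 tissues, but their largest falls were smaller than the median one of Capn11: Leo1 ran from -0.80 to -0.13, Igtp from -1.36 to -0.21, Gm17971 from -1.49 to -0.30, Akap17b from -1.14 to 0.17 and Slc35b1 from -0.63 to -0.08. The 16 libraries share 2 pools of mice and differ in depth, and the correlations are a description. With ranks in place of log values 3 of these 5 genes stayed among the top 5, and with 1 CPM added 2 did.

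The conventional large subunits were abundant everywhere and moved little. Capn1 (chr19:5988545-6015897, minus strand), the catalytic subunit of calpain-1, ranged from 20.9 to 77.2 CPM in the fed libraries with a median of 41.1, and from 15.3 to 74.8 CPM in the fasting ones with a median of 37.9. It was lower in fasting in 7 of 8 tissues, by at most 0.44 on the log2 scale, in liver (20.9 CPM fed, 15.3 fasting). White adipose, brown adipose, heart and lung followed with -0.35, -0.33, -0.27 and -0.26, and kidney alone was higher, at 31.7 CPM fed and 36.3 fasting (0.19). None of these passed the study's fold of 0.5 on the log2 scale. The fit across tissues gave -0.16 ± 0.08 (SE).

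Capn2 (chr1:182467260-182517608, minus strand), the catalytic subunit of calpain-2, split by tissue. It was lower in fasting in liver (73.2 to 56.8 CPM), brown adipose (233.8 to 181.9 CPM), white adipose (327.9 to 285.4 CPM) and muscle (66.8 to 62.4 CPM), with log2 differences of -0.37, -0.36, -0.20 and -0.10. It was higher in heart (103.0 to 130.6 CPM), lung (276.7 to 339.8 CPM) and kidney (115.4 to 137.0 CPM), with 0.34, 0.30 and 0.25, and close to level in spleen (74.3 to 75.0 CPM). Adipocyte markers summed to 373.6 CPM fed and 831.7 CPM fasting in heart and to 96.0 and 155.0 CPM in lung. In kidney they summed to 80.4 and 119.6 CPM, against 9273 to 18214 CPM in the adipose libraries. They were also higher in fasting liver (31.4 to 41.5 CPM) and brown adipose (9273 to 9511 CPM), where Capn2 was lower. In spleen, with Capn2 close to level, they went from 8.83 to 16.9 CPM. Muscle (193.5 to 170.7 CPM) and white adipose (18214 to 16002 CPM) had less of both in fasting. The part of these markers in the Capn2 values was not tested. None of the 8 Capn2 differences passed 0.5. The fit over all tissues was 0.02 ± 0.10 (SE).

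By tissue, the genes differed in order. Capn1 was highest in spleen (mean of the fed and fasting library 76.0 CPM), muscle (73.6) and lung (65.9), neighbours whose ranges overlapped, and lowest in liver (18.1). Capn2 was highest in lung (308.2 CPM) and white adipose (306.7), which overlapped, then brown adipose (207.8), and lowest in liver (65.0) and muscle (64.6), which overlapped. These orders are of CPM on library totals. In the tissue fit, a tissue's fed and fasting libraries served as its 2 values, and it was compared with the mean of the other 7 after scaling with TMM factors. Its p-values measure the spread between these libraries. In that fit, Capn1 was 2.06 ± 0.10 (SE, log2) higher in muscle (edgeR quasi-likelihood test, adjusted p = 2.39e-08), and on library totals 1.04 ± 0.10 higher (edgeR adjusted p = 5.98e-06). For Capn2 the difference in spleen was -1.63 ± 0.18 with TMM factors (edgeR adjusted p = 9.21e-06) and -0.94 ± 0.16 on library totals, short of the difference of 1 asked for a call. The place of muscle for Capn2 turned on the scaling, at -0.16 ± 0.16 with TMM factors (edgeR adjusted p = 4.60e-01), above liver (-0.43) and spleen, and -1.18 ± 0.16 on library totals. For Capn1 the lowest tissue was brown adipose with TMM factors (-0.83) and liver on library totals (-1.29). Library totals alone called Capn1 in liver and spleen (1.09), and Capn2 in muscle, liver (-1.17), white adipose (1.39) and lung (1.40).

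Levels can be compared between genes only per length, so they were set on exon length as TPM, a length-scaled share of the library. Among the 8 large subunits, Capn1, Capn2 and Capn7 together made up most of the total in all 16 libraries. Capn2 took its largest share in fed brown adipose (59.5%) and its smallest in fed muscle (17.0%). Capn1 ranged from 12.7% in fasting heart to 37.9% in fasting muscle. Capn11 took 0.346% to 2.37% in fed libraries and 0.0512% to 0.398% in fasting ones, with the highest fed share in liver. The sum of all 8 was 68.8 TPM in fasting liver, the lowest, and 283.4 TPM in fed white adipose, the highest.

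**Figure D2:**
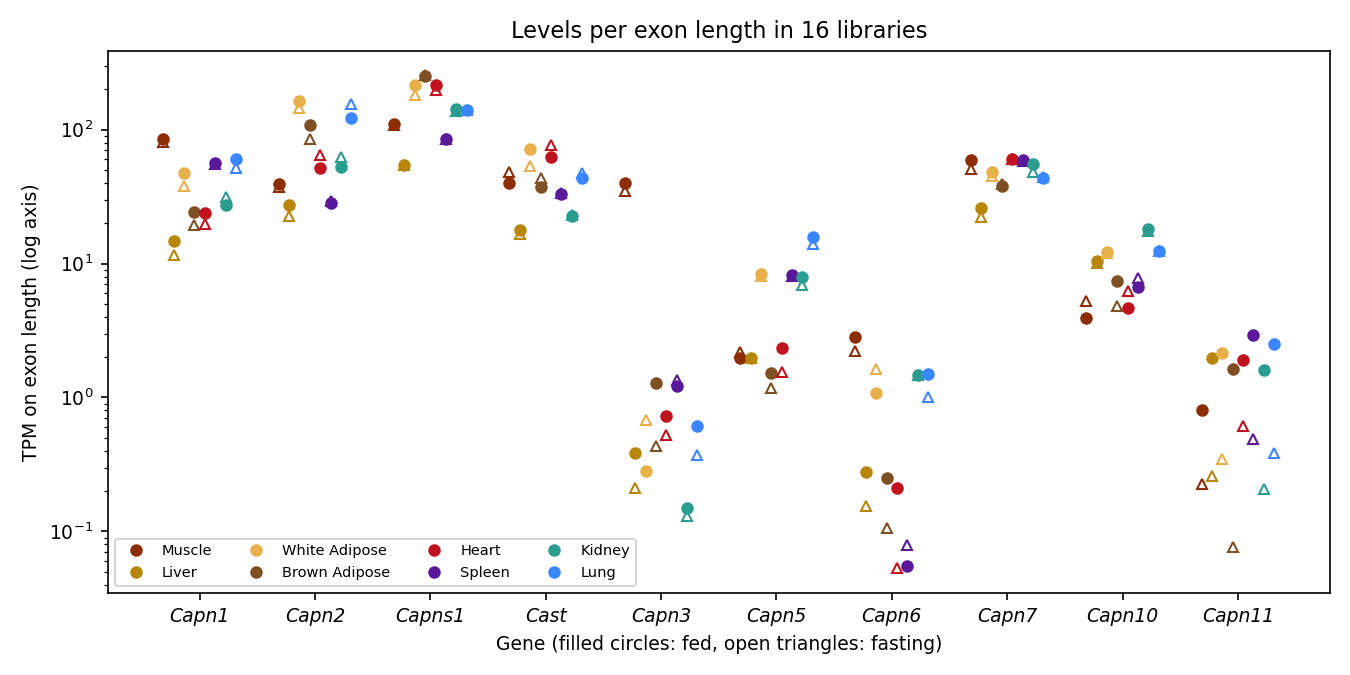
Level per exon length (TPM, log axis) of the 10 genes in the 16 libraries, with filled circles for fed, open triangles for fasting and a colour for each tissue. Capn11 is the gene whose triangles lie clear of its circles in every tissue, and Capn3 the gene with muscle far above the rest.

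Per exon base, Capn1 exceeded Capn2 in muscle and spleen and was below it elsewhere. The ratio was 2.15 in fed and 2.17 in fasting muscle, and 1.97 and 1.89 in spleen. In the other 12 libraries it lay between 0.223 (fed brown adipose) and 0.541 (fed liver). Between treatments it moved most in heart, from 0.460 (0.413 to 0.512) to 0.301 (0.267 to 0.339), and in lung, from 0.492 (0.469 to 0.516) to 0.336 (0.320 to 0.351). The lengths matter for the absolute values: on the longest coding length the ratio in muscle was 1.11 fed and 1.12 fasting, and in fasting spleen 0.979. A change of lengths scales this ratio by the same factor in every library, so the order of tissues cannot change.

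Capns1 (chr7:30186936-30198811, minus strand) encodes the small subunit that both conventional enzymes need for stability. It varied little between treatments, with 56.9 to 209.5 CPM fed (median 122.8) and 53.3 to 212.6 CPM fasting (median 118.8). Its log2 differences ran from -0.27 in white adipose (168.4 to 139.9 CPM) to 0.02 in brown adipose (209.5 to 212.6 CPM). Brown adipose was the top tissue (mean 211.0 CPM), apart from heart (162.2) and white adipose (154.2), whose ranges overlapped each other. Liver was lowest at 55.1 CPM on library totals, and spleen with TMM factors. Against the mean of the other tissues, spleen had -1.13 ± 0.11 with TMM factors (edgeR adjusted p = 3.91e-06), but -0.44 ± 0.09 on library totals, which instead called liver (-1.18) and brown adipose (1.03).

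Cast (chr13:74692368-74808810, minus strand), the gene of the inhibitor calpastatin, had 86.5 to 259.1 CPM fed (median 150.4) and 75.7 to 279.0 CPM fasting (median 162.6). White adipose showed its largest change, from 259.1 to 192.8 CPM (-0.43 on the log2 scale). Heart went from 228.0 to 279.0 CPM (0.29), muscle from 122.0 to 145.3 CPM (0.25) and brown adipose from 144.9 to 170.2 CPM (0.23), as comparisons of single libraries. The fit across tissues gave 0.07 ± 0.10 (SE). No tissue passed 0.5 on library totals, while white adipose did with TMM factors (-0.53). Heart was the tissue with most Cast (mean 253.5 CPM, overlapping white adipose at 226.0), and stood 1.05 ± 0.14 above the mean of the others with TMM factors (edgeR adjusted p = 8.03e-05) and 0.87 ± 0.12 above it on library totals. The next tissue was muscle with TMM factors (0.83) and white adipose on library totals (0.68), which called liver alone (-1.01). Of the exon bases of Cast, 7.27% are shared with Erap1 on the opposite strand, a gene of 24.3 to 168.1 CPM.

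Transcripts of the inhibitor and the subunits were also set against those of the enzymes. Per exon base, Cast stood at 0.839 of the sum of Capn1 and Capn2 in fed heart and 0.909 in fasting heart. All other libraries lay between 0.228 (fasting lung) and 0.488 (fasting liver). In brown adipose the ratio went from 0.280 (0.267 to 0.295) fed to 0.421 (0.399 to 0.445) fasting, and in muscle from 0.321 (0.305 to 0.337) to 0.406 (0.389 to 0.423). White adipose, kidney and lung went the other way, from 0.338 to 0.296, from 0.283 to 0.248 and from 0.238 to 0.228. Capns1 per exon base was 2.87 times the sum of both large subunits in fed heart and 0.676 times in fasting lung, the extremes of the 16 libraries. It moved from 1.88 to 2.44 in brown adipose and from 1.80 to 1.47 in kidney. On coding length the median over the 16 libraries changed from 0.364 to 0.756 for Cast and from 1.16 to 1.55 for Capns1. Heart then stood at 1.59 fed and 1.64 fasting for Cast, above 1 and not below it.

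**Figure D3:**
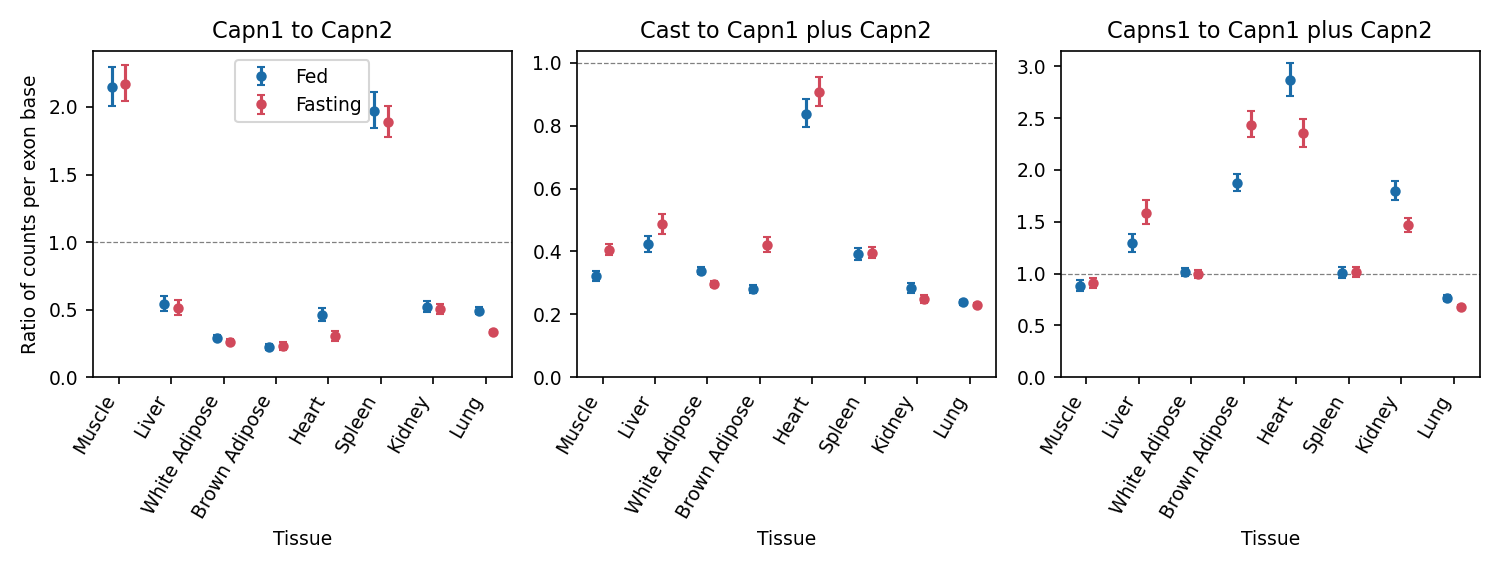
Ratios of counts per exon base in the fed (blue) and fasting (red) library of each tissue, with exact 95% binomial intervals of the counts; the dashed line marks a ratio of 1. Muscle and spleen stand above 1 for Capn1 to Capn2, and heart stands apart with 0.839 and 0.909 for Cast. On coding length the heart values for Cast are 1.59 and 1.64, above the line.

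Capn3 (chr2:120463572-120504918, plus strand) encodes the calpain of skeletal muscle, which binds titin in the sarcomere. Muscle held 46.1 CPM fed (1111 counts) and 39.5 CPM fasting (1223 counts), 86.8% of the sum over the 16 libraries. Spleen came next with 2.16 CPM fed and 2.37 CPM fasting, and kidney was lowest with 0.223 and 0.194 CPM (5 counts each). Muscle was therefore far above all other tissues. In the tissue fit it was 6.85 ± 0.21 (SE, log2) above the mean of the others with TMM factors (edgeR adjusted p = 2.67e-10) and 5.83 ± 0.24 above it on library totals (edgeR adjusted p = 8.18e-09). Kidney stood at -2.99 ± 0.45 with TMM factors (edgeR adjusted p = 2.20e-04) and -2.91 ± 0.49 on library totals. White adipose and lung, both at -1.50 with TMM factors (SE 0.36 and 0.34), were not called on library totals, which instead called spleen (1.01, edgeR adjusted p = 1.39e-02) and liver (-1.43, edgeR adjusted p = 1.08e-02). Of the gene's length, 49.9% of the exon bases are shared with an unnamed gene on the same strand, ENSMUSG00000118623.1, itself at 1.33 CPM or less, and the sources used here do not say how reads in shared bases were counted.

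With fasting, Capn3 in muscle was lower by 0.22 on the log2 scale (ratio 0.857, 0.789 to 0.930). In brown adipose it went from 1.87 CPM (31 counts) to 0.632 CPM (9 counts), or -1.55 (-2.82 to -0.46). The skeletal muscle markers in the same libraries summed to 2477 and 1138 CPM, and their part in the Capn3 value was not tested. White adipose moved the opposite way, from 0.386 CPM (9 counts) to 0.912 CPM (25 counts), or 1.22 (0.09 to 2.52), below the level of 1 CPM asked of tested genes. With 1 CPM added these differences were -0.81 in brown adipose and 0.46 in white adipose. The marker sum there was 179.5 CPM fed and 242.4 CPM fasting, and its part was likewise not tested. The genes most like Capn3 over the 16 libraries were Stac3, of excitation and contraction coupling in muscle (r = 0.977), Ankrd2, a stretch-responsive muscle gene (r = 0.952), and Stat5b, a signal transducer (r = 0.95). All 3 had their highest level in muscle, Stac3 at 152.1 CPM fed and Stat5b at 513.7 CPM fasting. With ranks in place of log values none of the 3 stayed among the top 3.

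Capn5 (chr7:98121559-98178274, minus strand), whose protein lacks the calcium-binding end domain of the conventional enzymes, had 2.83 to 30.9 CPM fed (median 9.56) and 2.18 to 26.7 CPM fasting (median 8.68). Lung was highest (mean 28.8 CPM), then spleen (18.2), apart from white adipose (14.2) and kidney (14.1), which overlapped. Brown adipose was lowest at 2.50 CPM. The tissue fit placed lung 1.55 ± 0.13 above the mean of the others (edgeR adjusted p = 1.52e-06), brown adipose at -1.90 ± 0.18 (edgeR adjusted p = 9.14e-06) and heart at -1.17 ± 0.17 (edgeR adjusted p = 1.81e-04). All 3 were also called on library totals, which added calls in muscle (-1.52), spleen (1.43) and white adipose (1.03). With TMM factors kidney (0.91) stood above spleen (0.74). With fasting it was lower in 7 of 8 tissues, and only heart passed 0.5, from 4.07 CPM (70 counts) to 2.69 CPM (41 counts), or -0.60 (-1.19 to -0.02). With 1 CPM added it stood at -0.46, short of 0.5.

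Capn6 (chrX:143802231-143827414, minus strand), the member with the lysine codon, is known to bind microtubules. It was the member with most tissue calls, 7 of 8 with TMM factors and 7 of 8 on library totals. Muscle was highest at 5.94 CPM fed (143 counts) and 4.53 CPM fasting (140 counts), and kidney, lung and white adipose followed at means of 3.98, 3.42 and 3.32 CPM, with overlapping ranges. Liver, brown adipose, heart and spleen stayed below 1 CPM, and spleen had 4 and 7 counts. Against the mean of the others, muscle was 3.38 ± 0.25 higher (edgeR adjusted p = 7.61e-07) and spleen stood at -3.49 ± 0.45 (edgeR adjusted p = 3.89e-05). Kidney, white adipose and lung were 1.85 ± 0.28, 1.16 ± 0.29 and 1.01 ± 0.29 higher, and heart and brown adipose stood at -2.01 ± 0.45 and -1.64 ± 0.43, all called by edgeR with both scalings. With fasting, white adipose went from 2.66 CPM (62 counts) to 3.97 CPM (109 counts), or 0.58 (0.12 to 1.05), and lung from 4.13 CPM (124 counts) to 2.72 CPM (98 counts), or -0.60. Kidney tubule markers summed to 64.8 CPM fed and 743.8 CPM fasting in white adipose and to 346.5 and 200.4 CPM in lung. Kidney itself, whose Capn6 range overlapped that of lung, had 35285 and 31066 CPM of them. The part of these markers in the Capn6 values was not tested. Capn6 in white adipose was the only member at 1 CPM to pass 0.5 upward in any tissue, and with TMM factors it stood at 0.47. With 1 CPM added neither tissue passed 0.5 (0.44 in white adipose and -0.46 in lung). The genes most like it were Bmpr1b, a BMP receptor (r = 0.903), Mchr1, a melanin-concentrating hormone receptor (r = 0.902), and Wnt4, a secreted signal (r = 0.902). With ranks 1 of these 3 stayed among the top 3, and with 1 CPM added 2 did.

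Capn7 (chr14:31336638-31371986, plus strand), an atypical calpain whose protein binds the ESCRT machinery of membranes, was well expressed in all tissues. It had 53.7 to 119.7 CPM fed (median 76.3) and 43.2 to 114.7 CPM fasting (median 71.5). On library totals spleen was highest (mean 117.2 CPM) and liver lowest (48.4 CPM). With TMM factors the order was another, with muscle highest at 0.91 ± 0.09 against the mean of the other tissues, lung lowest at -0.65 ± 0.10, spleen at 0.02 and liver at -0.01. No tissue was called in the tissue fit with either scaling. Its fasting differences ran from -0.31 in liver to 0.05 in brown adipose.

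Capn10 (chr1:92934376-92947941, plus strand), studied for its link with diabetes, had 4.53 to 27.5 CPM fed (median 14.4) and 5.98 to 26.3 CPM fasting (median 15.0). On library totals kidney was highest (mean 26.9 CPM) and muscle lowest (5.25 CPM), while with TMM factors liver was highest and heart and spleen were lowest (-0.69 each). Kidney was 1.14 ± 0.16 above the mean of the others with TMM factors (edgeR adjusted p = 9.50e-05) and 1.23 ± 0.15 above it on library totals. Liver was 1.34 ± 0.16 above it with TMM factors (edgeR adjusted p = 2.11e-05), but 0.60 ± 0.16 on library totals. Muscle was called on library totals at -1.46 ± 0.19 (edgeR adjusted p = 4.65e-05) and not with TMM factors (-0.44). With fasting, brown adipose went from 10.8 CPM (180 counts) to 7.09 CPM (101 counts), or -0.61 (-0.98 to -0.25). Heart and muscle moved the opposite way, from 6.45 to 8.59 CPM (0.41, 0.04 to 0.79) and from 4.53 to 5.98 CPM (0.40, 0.05 to 0.76), both short of 0.5.

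Counted by tissue, members past 0.5 on the log2 scale numbered between 0 and 3, and Capn11 was among them in 7 of 8 tissues. These counts rest on the contrast that chose Capn11 and nothing is read from them. In liver 1 of 8 members at 1 CPM passed (Capn11), where 29.1% of all genes passed in either direction. Spleen and kidney each had 1 of 9 (Capn11), beside 10.5% and 15.6% of all genes. Muscle had 0 of 9, beside 29.7%, because Capn11 stayed under 1 CPM there. White adipose had 2 of 9 (Capn11 and Capn6), beside 33.4%, and heart 2 of 8 (Capn11 and Capn5), beside 24.8%. Lung had 2 of 9 (Capn11 and Capn6), beside 17.5%. Brown adipose had the most, 3 of 9 (Capn11, Capn3 and Capn10), beside 30.1%. The median difference of the members ran from -0.36 in brown adipose to -0.02 in spleen, where those of all genes were -0.03 and -0.02. TMM factors moved the median of all genes by over 0.1 in liver, from -0.13 to -0.00, and in white adipose, from 0.07 to -0.04. In white adipose they exchanged Capn6 for Cast among the 2 members past 0.5.

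**Figure D4:**
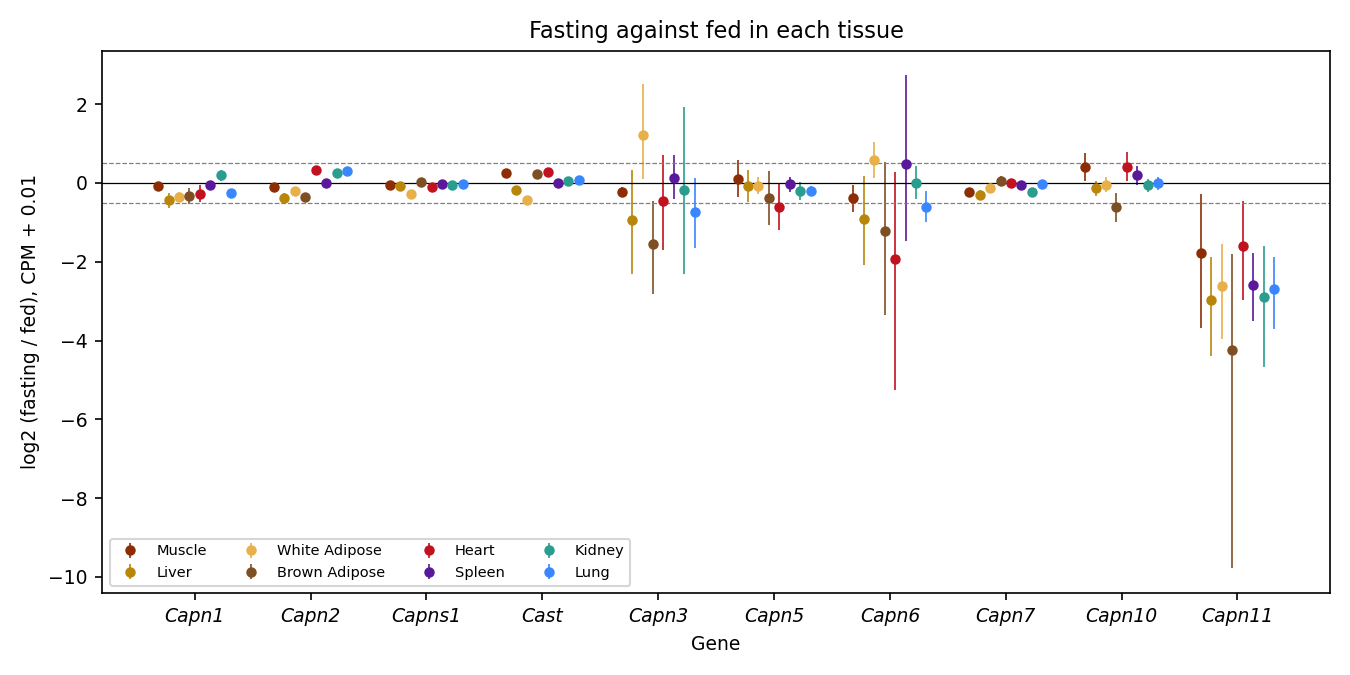
Fasting against fed difference of each gene in each tissue (log2 of CPM with 0.01 added), with exact 95% counting intervals and dashed lines at 0.5 and -0.5. Capn11 lies between -4.24 and -1.61 in all 8 tissues (between -1.47 and -0.45 with 1 CPM added), while Capn3 and Capn6 scatter to both sides and, of the other members, Capn10 in brown adipose (-0.61) and Capn5 in heart (-0.60) lie past a dashed line.

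Over the 80 pairs of a member and a tissue, the tissue fit called 21, 11 higher and 10 lower than the mean of the other tissues, asking for both an edgeR adjusted p below 0.05 and a log2 difference past 1. Spleen had 3 of 10 members called, where 45.6% of all genes were called. Liver had 2 of 10, beside 34.7%, lung 3 beside 34.3% and muscle 3 beside 32.1%. Kidney had 3, beside 29.5%, and heart 3, beside 24.3%. White and brown adipose had 2 each, beside 23.1% and 22.8%. Only 14 of the 21 calls were also made in the same direction on library totals, which called 31 pairs. In muscle library totals called 7 members, and in liver 5, all of them lower and none of them among the 2 called with TMM factors. The shares of all genes above are those with TMM factors. No such share is given for library totals, so nothing about the members is read from the counts on library totals. That scaling moved the median of all genes by -1.02 in muscle, -0.74 in liver, 0.69 in spleen, 0.63 in lung and 0.49 in white adipose. Capn11 was among the calls that depended on it, at 1.03 ± 0.33 above the others in liver with TMM factors (edgeR adjusted p = 2.28e-02) and 0.30 ± 0.34 on library totals (edgeR adjusted p = 4.84e-01). The call was also lost with DESeq2 (0.99, adjusted p = 6.68e-02) and without the treatment term (1.11, edgeR adjusted p = 4.08e-01). Library totals instead called Capn11 in muscle (-1.45) and spleen (1.07).

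**Figure D5:**
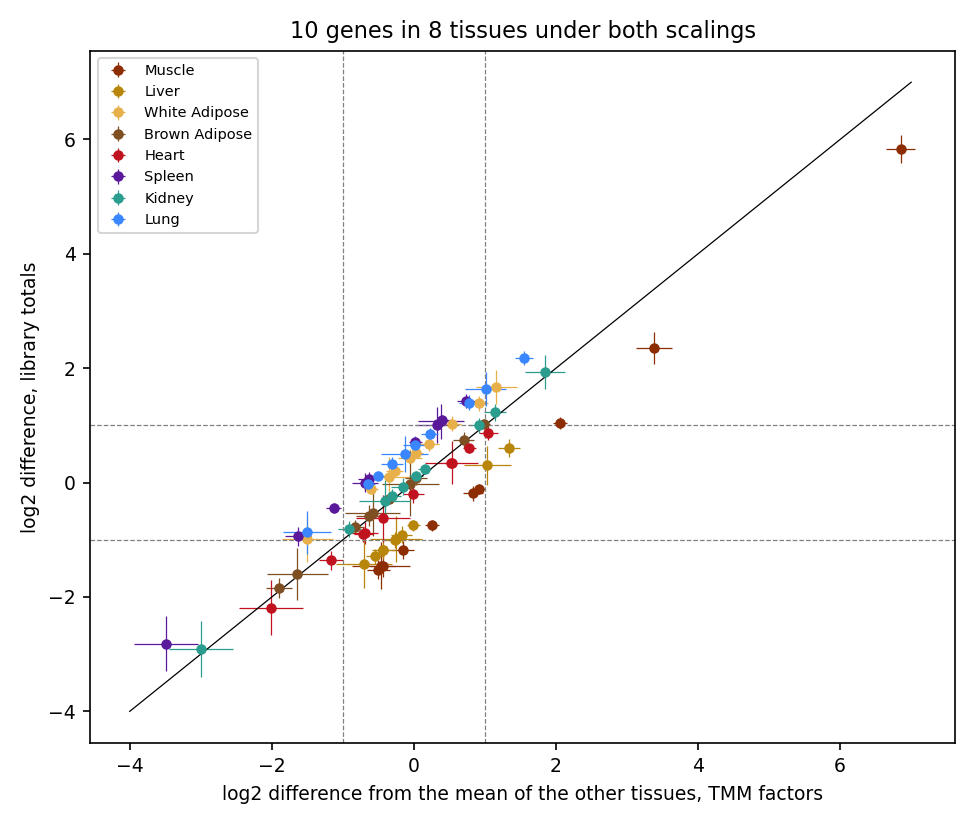
Difference of each tissue from the mean of the other 7 (log2) for the 10 genes, with TMM factors on the horizontal and library totals on the vertical axis; bars are standard errors, the line marks equality and the dashed lines a difference of 1. Muscle and liver fall below the line and spleen, lung and white adipose above it, while Capn3 in muscle is the highest point on both axes.

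The remaining calpain genes were mostly rare. Capn15, an atypical large subunit, was present in all 16 libraries at 7.44 to 47.8 CPM, lowest in muscle and highest in spleen. Capn8 was found in liver (4.30 CPM fed, 7.09 fasting) and lung (1.13 and 1.28), and Capn12 in white adipose (3.13 and 3.32), brown adipose (2.11 and 2.88) and heart (1.57 and 1.77). Capn13 reached 1 CPM in lung (2.03 and 3.44), and Capns2, a second small subunit gene, in spleen (3.14 and 2.48). Capn9 stayed at or below 0.693 CPM. Of the 6, Capn15 passed the filter of the fit across tissues, with a fasting difference of 0.08 ± 0.08 (edgeR adjusted p = 5.68e-01).

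Other proteases and known calpain substrates were examined in the fit of all 16 libraries, in which 2.31% of 17296 genes rose and 2.08% fell with fasting. Its p-values measure the spread between tissues of the same 2 pools. Among 13 cathepsins tested, 2 rose and none fell. The genes were Ctsl, a lysosomal endopeptidase, at 0.66 ± 0.14 (SE, log2; edgeR adjusted p = 3.01e-02, higher in 8 of 8 tissues), and Ctsf at 0.64 ± 0.09 (edgeR adjusted p = 8.71e-03, higher in 8 of 8). Ctsf was called in all 12 alternative fits (adjusted p from 2.34e-07 to 3.12e-02) and Ctsl in 6 of them (4.30e-04 to 7.59e-02). The most abundant cathepsins, Ctsb and Ctsd, had -0.12 ± 0.10 and 0.09 ± 0.09 (edgeR adjusted p = 4.64e-01 and 5.95e-01). The median over the list was -0.01, the same as over all genes.

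None of 9 caspases was called by edgeR, while 4 had an unadjusted p under 0.05 and DESeq2 called 2, both as lower. The same unadjusted cut held for 5 of 13 cathepsins and 2 of 16 calpain substrates. No share of all genes is given for that cut or for DESeq2, so nothing is read from these counts. The abundant Casp8 and Casp2 had -0.09 ± 0.09 and 0.20 ± 0.07 (edgeR adjusted p = 5.87e-01 and 1.22e-01). Among 16 calpain substrates 1 fell, Flna, which encodes the actin crosslinker filamin A, at -0.32 ± 0.07 (edgeR adjusted p = 3.87e-02, lower in 8 of 8 tissues). It was called in 2 of 12 alternative fits, whose adjusted p ranged from 2.43e-05 to 9.39e-02. The spectrin genes Sptbn1 and Sptan1 had 0.13 ± 0.08 and 0.20 ± 0.08 (edgeR adjusted p = 3.47e-01 and 1.48e-01), and the list had a median of -0.05. Sptan1 was called as higher in 1 of 12 alternative fits, that with DESeq2 (0.19, DESeq2 adjusted p = 3.87e-02). Of 11 limb-girdle muscular dystrophy genes other than Capn3, none was called by edgeR or DESeq2 and none had an unadjusted p under 0.05. Ttn, which encodes the titin that Capn3 binds, had -0.22 ± 0.21 and Tcap, its cap at the Z-disc, -0.11 ± 0.19 (edgeR adjusted p = 5.57e-01 and 7.70e-01), and the median was -0.10.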

How the data were processed

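RNA from pooled tissue was sequenced as strand-specific paired-end libraries with 100-base reads. Per the methods and the submitters' processing notes, read trimming used fastp 0.23.2, quality was inspected in FastQC 0.11.8, alignment to GRCm38 used HISAT2, and genes of GENCODE vM24 were counted by featureCounts (Subread 2.0). The values the authors deposited are raw counts per gene, with the summed exon length in bases, another deposited column written by the counting program. The strand setting is not given in the sources used here. Gene symbols matched 55144 of 55385 identifiers.

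CPM was computed on library totals and TPM on exon length. Within a tissue, log2 differences used a pseudocount of 0.01 CPM, the study's fold of 0.5 and genes with at least 1 CPM in at least 1 of the 2 libraries, with exact 95% binomial intervals. Across libraries, edgeR 4.0.16 (TMM, filterByExpr, quasi-likelihood test, Benjamini-Hochberg adjustment) was run on a model of tissue and treatment in R 4.3.3, with 17296 genes for fasting and 23580 for contrasts of a tissue with the mean of the other 7. These fits were tested on simulated data, in which 200 genes were changed by 2 on the log2 scale. The fasting fit (17281 genes simulated) recovered 177 of them, with 11 false among 188 calls. The fit of muscle against the others (18271 genes simulated) recovered 181, with 7 false among 188 calls. The changed genes were drawn from those above a minimum mean count. Simulated libraries were independent, with no difference between pools. For muscle all changes were upward, and every other gene had a single level in all tissues. The simulation therefore does not cover shared pools or tissues of unlike composition. DESeq2 1.42.0, library totals, no filter, other pseudocounts and leaving out tissues were alternatives. Coding sequences came from GENCODE M21, an older release on the same build, and were translated and aligned with Biopython 1.88.

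The genes and lists were chosen with earlier results of these data known. Named genes were the members, genes overlapping them or within 50000 bases of Capn11, the other calpains, per list the 2 most abundant and the 2 called genes with the largest change each way, and the 5 genes (Capn11) or 3 genes (Capn3, Capn6) of highest correlation. Popdc1 of the dystrophy list was not matched.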

Additional observations from a re-analysis of the deposited data

Results flagged for a closer look

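In 2 members the fasting difference took opposite directions in different tissues, past 0.5 on the log2 scale on either side with 0.01 CPM added. A pair of tissues is given for each. At levels below 1 CPM, Capn3 was also lower in liver (-0.93) and lung (-0.74). Likewise below 1 CPM, Capn6 was lower in heart (-1.92), brown adipose (-1.21) and liver (-0.91). None of these further values passed 0.5 with 1 CPM added. Capn3 differed by 2.77 between white adipose (1.22) and brown adipose (-1.55). With 1 CPM added these values were 0.46 and -0.81, and Capn3 stayed under 1 CPM in white adipose (9 and 25 counts). Capn6 differed by 1.18 between white adipose (0.58) and lung (-0.60), neither of them past 0.5 with 1 CPM added (0.44 and -0.46). With 1 library per tissue and treatment these differences were not tested, and skeletal muscle markers moved in the same direction as Capn3 in both adipose tissues. Kidney tubule markers moved in the same direction as Capn6 in white adipose and lung. The part of either list was not tested.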

How the results depend on the processing

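The number of members past 0.5 per tissue did not change with TMM factors, DESeq2 size factors or totals without the 10 highest genes, although in white adipose the first pair of scalings put Cast in the place of Capn6. With 1 CPM added, white adipose, heart and lung had 1 in place of 2 (Capn6, Capn5 and Capn6 lost), and Capn11 ran from -1.47 to -0.45. With a Fisher exact p under 0.01 asked as well, white adipose and heart had 1. With no minimum, muscle had 1, liver, white adipose, heart and lung 3 and brown adipose 4. Tissue calls were 21, with 20 in DESeq2 and 31 on library totals, within 1.5 times, but only 14 of the 21 were kept on library totals. Called caspases were 0, but 2 with DESeq2, 1 on library totals and between 0 and 1 when a tissue was left out (1 without kidney). Called cathepsins were 2, but 1 without both adipose tissues and between 1 and 2 when a tissue was left out (1 without muscle, liver, brown adipose, heart or lung). Called substrates were 1, but 2 with DESeq2, 0 with no filter, 0 without both adipose tissues and 0 without any tissue in turn. Tcap, not called at -0.11, ranged from -0.24 (without muscle) to 0.07 (without brown adipose) when a tissue was left out, and was 0.19 without both adipose tissues. The median ratio of Cast to Capn1 plus Capn2 was 0.756 on coding length, an alternative chosen after seeing the data, in place of 0.364. The cause of these shifts was not tested. The planned coding length from RefSeq proteins was not run. The fasting fit pairs fed and fasting libraries within tissues, and no replicate number in the labels gives a further block. Capn11 in fasting libraries rested on 1 to 15 counts each, which limits its precision.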
